A study of Mus musculus with 2 samples.

Results

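The genes described here are 40 genes of skeletal muscle that build the sarcomere, handle its calcium, fuel its contraction or switch on its transcription. They were taken from the 2 arrays as every non-control probe whose gene name on the array equals 1 of the 40 symbols. All 40 symbols were found, on 79 probes of 60 bases, out of 37074 gene names and 56605 probes in all. The noise sample was cochlear RNA of 7-week-old female C57BL/6 mice dissected 3 hours after an exposure to intense noise that lasted 2 hours. The baseline sample was cochlear RNA of 7-week-old female C57BL/6 mice without noise exposure. C57BL/6 is an inbred laboratory strain, both groups carry no other treatment in the labels, and the number of mice behind each sample is not given there. Each group had 1 one-colour Agilent array, so no difference below was tested across animals, and a size rule of 2-fold stands in place of a test.

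A sarcomere is the repeating contractile unit of striated muscle, in which thick filaments of myosin pull on thin filaments of actin that are anchored in the Z-disc. Calcium released from the sarcoplasmic reticulum binds troponin C, which lets tropomyosin move aside on the thin filament, and a calcium pump then takes the calcium back up. Fast and slow muscle fibres use different genes for many of these proteins. The cochlea has no skeletal muscle of its own, and the small muscles that move the middle ear bones lie close to it.

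Signals are given as a percentage of the 75th percentile of all non-control probes on the same array, called the scaled signal, so that both arrays are on 1 scale. A log2 ratio is always noise minus baseline and is negative where the noise array was lower. A probe was taken as measured if its spots passed the scanner software's well-above-background flag on each of the arrays. This held for 74 of the 79 probes and for 39 of the 40 genes, and no gene of the set was measured on 1 array only. The exception was Myog (myogenin, a transcription factor of differentiating muscle), whose single probe failed that flag on both. A gene with several measured probes took the median of their log2 ratios. The arrays had similar shares of probes well above background, 75.3% after noise and 75.2% at baseline. All 16 marker genes of the cochlea that were looked up, such as Coch and Otor, were measured on both arrays. In whole-tissue RNA, fewer muscle cells and less of a transcript per muscle cell cannot be told apart.

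The probes below show what the arrays read. They were picked, after their values had been seen, because each covers more than 60 bases of the mm9 genome. Each therefore holds the sequence across a splice junction, as in spliced messenger RNA. Whether unspliced RNA also bound these probes was not tested. All are from the fast and slow partner genes compared further on, except that of Ckm, and each has at least 1 reading frame without a stop codon. The sequences are printed as the array files hold them, with mm9 coordinates.
Ckm, chr7:20002222-20004829, plus strand: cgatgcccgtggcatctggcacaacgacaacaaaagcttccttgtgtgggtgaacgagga
Tnnt3, chr7:149698254-149698479, plus strand: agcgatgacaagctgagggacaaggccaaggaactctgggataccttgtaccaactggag
Mylpf, chr7:134356749-134356985, plus strand: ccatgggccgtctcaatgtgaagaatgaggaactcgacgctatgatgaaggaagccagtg
Myl1, variant 3f, chr1:66976853-66981100, minus strand: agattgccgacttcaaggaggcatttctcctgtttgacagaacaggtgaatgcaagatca
Myl3, chr9:110671632-110671926, plus strand: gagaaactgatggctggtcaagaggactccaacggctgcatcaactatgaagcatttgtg
Tnni1, chr1:137705328-137706203, plus strand: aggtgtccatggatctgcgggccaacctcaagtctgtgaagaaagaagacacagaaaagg
Tnnc1, chr14:32023360-32023776, plus strand: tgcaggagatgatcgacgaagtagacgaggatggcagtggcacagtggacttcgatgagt
Mybpc1, predicted variant X23, chr10:87999211-88000253, minus strand: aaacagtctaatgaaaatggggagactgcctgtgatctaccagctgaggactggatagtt
Mybpc1, curated mRNA, chr10:88029270-88031362, minus strand: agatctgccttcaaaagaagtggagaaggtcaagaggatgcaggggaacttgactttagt
Tpm3, chr3:89893733-89893942, plus strand: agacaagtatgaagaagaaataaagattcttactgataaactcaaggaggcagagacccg
Of the 74 measured probes, 18 span a junction in this way, and 15 of these 18 had a log2 ratio below 0, with a median of -0.56. The remaining 56 probes had a median of -0.38.

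Skeletal muscle transcripts were lower on the noise array as a set. Of the 39 measured genes, 35 had a log2 ratio below 0 (89.7%), where 52.5% of all 26528 measured genes did. The remaining 4 (Tpm3, Tpm1, Mybpc1 and Myod1) were above 0, as were 47.5% of all genes. The median over the 39 genes was -0.50, against -0.01 over all genes, and 6.74% of all genes lay at or below -0.50. Past the 2-fold rule stood 3 genes (7.69%), all lower after noise: Mb, Myoz1 and Ckm. With spike-in scaling or the normexp background correction only Mb stayed past it, with Myoz1 at -0.90 and -0.71 and Ckm at -0.81 and -0.52 in those settings. Over all genes, 1.25% were at least 2-fold lower and 0.611% at least 2-fold higher. Just outside the rule lay Tnnt3 at -0.93, and just inside it Ckm at -1.04. With a size rule of 1.5-fold, chosen after the data had been seen, 15 of the 39 genes were lower (38.5%, against 4.99% of all genes) and none was higher (3.02% of all genes). That count was 7 with spike-in scaling and 8 with normexp. In those settings the share of all genes at least 2-fold lower also fell, to 0.679% and 0.279%. The matching share of all genes at 1.5-fold is not given.

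**Figure D1:**
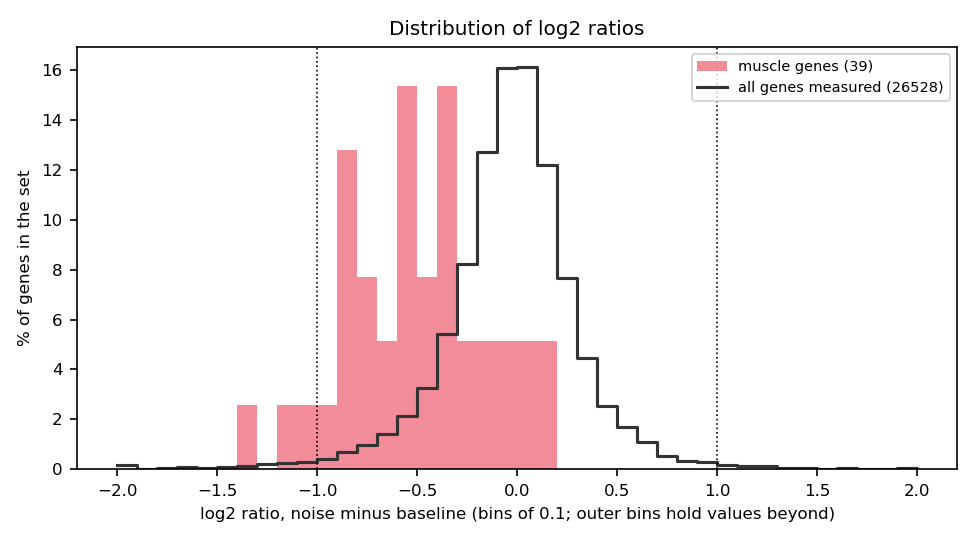
Share of genes (vertical axis, %) by log2 ratio of noise minus baseline (horizontal axis, bins of 0.1), for the 39 measured muscle genes (bars) and all 26528 measured genes (line). The muscle genes run from -1.32 to 0.20 with a median of -0.50, and all genes centre on -0.01.

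With 1 array per group, the differences among the muscle genes can be set against technical error and against the spread of all genes, and not against that between animals. The scanner software's own error put between 0.20 and 0.37 on the log2 ratio of a measured probe of the set, with a median of 0.21. Different probes of the same gene differed with a pooled SD of 0.33 over the 18 genes of the set that have several measured probes, and with 0.27 over 9348 genes of the array. The 39 genes themselves differed from each other with an SD of 0.35, close to that between probes of 1 gene and equal to the SD of 0.35 over all 26528 genes. Of the 18 genes with several probes, 10 had all probes below 0, 8 had probes on both sides of 0 and none had all above.

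Genes of oxygen storage and energy supply were lowest of the 6 roles, with 5 of 5 below 0 and a median of -0.89. Mb, myoglobin, which stores oxygen in muscle fibres, had a scaled signal of 62.7% after noise, against 156% at baseline. That was 2.50-fold lower (log2 ratio -1.32), the lowest value of the set. Ckm encodes the cytosolic creatine kinase of muscle, which regenerates ATP from phosphocreatine. Its junction probe shown above read 10.6% after noise, against 21.8% at baseline, 2.06-fold lower (-1.04). Ckmt2, the creatine kinase of muscle mitochondria, read 74.2% after noise, against 138% at baseline (1.86-fold lower, -0.89). How much of the signal of Mb, Ckm and Ckmt2 came from cells other than muscle, such as fat, was not tested. Within the set, Eno3 and Pygm, the enzymes of sugar use, lay closer to baseline. This does not extend to genes outside the set, where Pgam2, given below, was at -1.22. Eno3, the muscle enolase of glycolysis, read 278% after noise, against 412% at baseline (-0.57). Pygm, the muscle glycogen phosphorylase, was at -0.44, with its measured probes at -0.56 and -0.31.

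Thin filament genes gave 9 of 11 below 0 and a median of -0.43, with the fast troponins lowest. Troponin T, which ties the troponin complex to tropomyosin, is made in fast fibres from Tnnt3. Its 3 probes read 92.1%, 159% and 82.1% after noise, against 184%, 302% and 154% at baseline, and their log2 ratios of -0.99, -0.93 and -0.90 lay within 0.09 of each other. Tnni2, the fast inhibitory subunit troponin I, read 284% after noise, against 508% at baseline (1.79-fold lower, -0.84). The calcium-binding subunit of fast fibres, Tnnc2, read 428% after noise, against 752% at baseline (1.76-fold lower, -0.81). All of these fast troponins were thus between 1.76-fold and 1.90-fold lower. Acta1, the skeletal alpha-actin that forms the filament itself, had a scaled signal of 73.3% after noise, against 116% at baseline (1.58-fold lower, -0.66). Among the slow troponins, Tnnt1 was at -0.62, with probes at -0.76 and -0.47, Tnni1 at -0.43 and Tnnc1 at -0.27. The signal of Tnnc1 was near the lower limit of measurement, 2.60% after noise, against 3.15% at baseline. Neb, nebulin, which runs along the thin filament, was at -0.37, with 4 probes between -0.72 and -0.21.

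Tropomyosins, the coiled-coil proteins that lie along actin, differed by transcript variant, as the array names the variants. In Tpm2, the probe of variant Tpm2.2, the striated muscle form, read 9.20% after noise, against 14.4% at baseline (-0.65). A second probe, of variant Tpm2.3, read 230% after noise, against 224% at baseline (0.04), which left the gene at -0.31. In Tpm3, the probe of Tpm3.12, the slow skeletal form, was lowest of 5 at -0.21, and read 53.5% after noise, against 61.9% at baseline. The others were above 0: Tpm3.1, a cytoskeletal form found in most cells, at 0.16 and 0.20, Tpm3.13 at 0.30 and Tpm3.4 at 0.59. For Tpm1, the probe of Tpm1.1, the striated muscle form, was lowest of 4 at -0.08, with Tpm1.10 at 0.05, a cDNA clone at 0.16 and Tpm1.5 at 0.44. The striated form was thus the lowest probe in each of the tropomyosin genes, although in Tpm1 and Tpm3 its value was no further from 0 than 0.21, the median software error. As genes, Tpm1 was at 0.11 and Tpm3 at 0.20, the highest of the set. A probe named for a variant may also read other variants that share its exon, which was not tested.

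**Figure D2:**
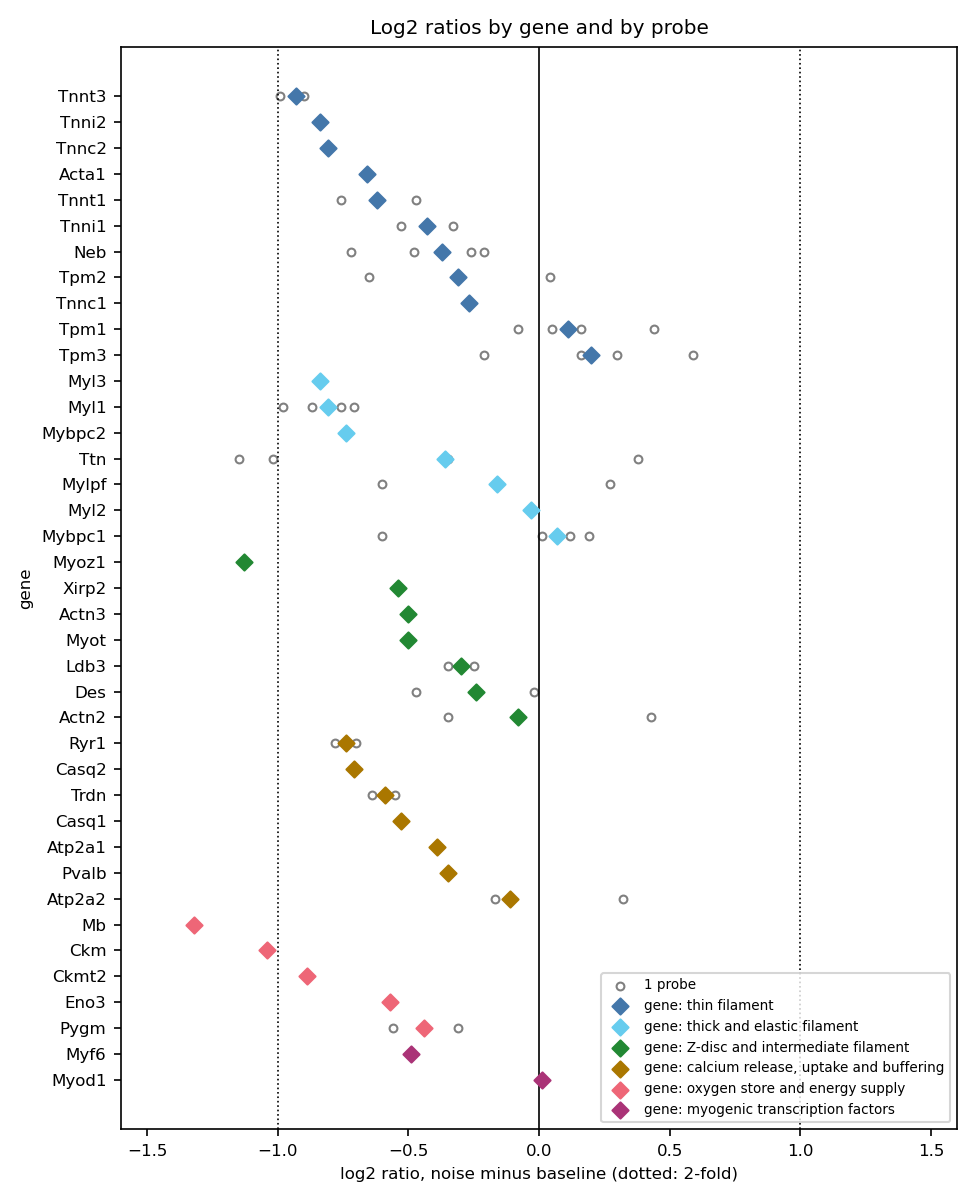
Log2 ratio of noise minus baseline for the 39 measured genes (diamonds, coloured and ordered by role) and for each of their 74 measured probes (open circles), with dotted lines at 2-fold. Mb (-1.32), Myoz1 (-1.13) and Ckm (-1.04) lie past the line, while the probes of Ttn spread from -1.15 to 0.38.

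In the thick filament, the alkali light chains that wrap the myosin neck were lower and the regulatory light chains were uneven. Over the thick and elastic filament, 6 of 7 genes were below 0, with a median of -0.36. Myl1, the fast alkali chain, was at -0.81 as a gene, and all 4 of its probes lay between -0.98 and -0.71. Its brightest probe read 283% after noise, against 518% at baseline. The slow and cardiac counterpart Myl3 was equally low: it read 39.6% after noise, against 70.9% at baseline (1.79-fold lower, -0.84). Mylpf, the fast regulatory chain, had a probe of the curated mRNA at -0.60, which read 84.5% after noise, against 128% at baseline. A second, dimmer probe of a predicted variant was at 0.27, which left the gene at -0.16. The slow regulatory chain gene Myl2 read 21.4% after noise, against 21.9% at baseline (-0.03).

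Myosin binding protein C, which stiffens and regulates the thick filament, differed between its fast and slow genes. Mybpc2, the fast form, read 18.1% after noise, against 30.1% at baseline (1.67-fold lower, -0.74). Mybpc1, the slow-type form, was at 0.07 over 4 probes. Of these, the probe of predicted variant X23 was at -0.60, and the remaining 3 ran from 0.01 to 0.19. Both junction probes of Mybpc1 printed above belong to these opposite values, at -0.60 for X23 and 0.12 for the curated mRNA. The X23 probe was dim, with 2.77% after noise, against 4.21% at baseline.

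Titin, the elastic protein that spans from Z-disc to the middle of the sarcomere, is encoded by Ttn on the minus strand of chromosome 2, and its probes disagreed. The probes of variant N2-A at the low-coordinate end, chr2:76542077-76542136 and chr2:76542655-76542714 (mm9), were at -1.02 and -1.15. The first read 21.1% after noise, against 42.7% at baseline, and the second 13.6% after noise, against 30.2% at baseline. Because the gene lies on the minus strand, these are, of its measured probes, the ones nearest its 3′ end. Further upstream, probes of other accessions at chr2:76669859-76669918 and chr2:76752155-76752214 were at -0.36 and -0.35. A further one, at chr2:76674450-76674629, was at 0.38 and read 9.09% after noise, against 7.01% at baseline. The median of the 5 measured probes, -0.36, therefore covers values from more than 2-fold lower to above 0.

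Z-disc and intermediate filament genes were below 0 in 7 of 7, with a median of -0.50. Myoz1, also called calsarcin-2, which links alpha-actinin to the phosphatase calcineurin in fast fibres, read 16.9% after noise, against 37.0% at baseline. It was 2.19-fold lower (-1.13), second in the set to Mb. Xirp2, an actin-binding repeat protein, was at -0.54. Actn3, the alpha-actinin of fast fibres, and Myot, myotilin, a partner of alpha-actinin, were both at -0.50. Ldb3, also called ZASP or Cypher, was at -0.30. Des, the intermediate filament protein desmin, which smooth muscle also makes, was at -0.24, with its curated mRNA at -0.47 and an Ensembl transcript at -0.02. Actn2, the alpha-actinin found in all striated fibres, was at -0.08. Its brightest probe was at -0.35 and a cDNA clone at 0.43.

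Calcium release genes were lower by similar amounts, and the calcium group as a whole was below 0 in 7 of 7, with a median of -0.53. Ryr1 is the calcium release channel of the sarcoplasmic reticulum. Its measured probes read 26.8% and 12.9% after noise, against 45.9% and 21.0% at baseline, with log2 ratios of -0.78 and -0.70. Trdn, triadin, which anchors calsequestrin at that channel, was at -0.59 with probes at -0.64 and -0.55. The calcium store proteins calsequestrin were at -0.53 for Casq1, the skeletal form, and -0.71 for Casq2, the cardiac and slow-fibre form. Casq2 read 16.8% after noise, against 27.5% at baseline. These 4 genes of release and storage thus lay between -0.74 and -0.53.

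Calcium uptake and buffering genes were nearer 0. Atp2a1, the calcium pump SERCA1 of fast fibres, read 21.1% after noise, against 27.7% at baseline (-0.39). Atp2a2, which encodes SERCA2, used by slow fibres, the heart and most other cells, was at -0.11, with probes at -0.17, -0.11 and 0.32. Pvalb, parvalbumin, buffers calcium in fast fibres and is also made by neurons and hair cells of the inner ear. It read 4248% after noise, against 5424% at baseline (1.28-fold lower, -0.35).

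Myogenic transcription factors gave little signal. Myf6 read 1.84% after noise, against 2.57% at baseline (-0.49). Myod1 read 2.92% after noise, against 2.89% at baseline (0.01). Both are close to the lower limit of measurement, 1.45% on the noise array, and Myog was below it on that array.

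**Figure D3:**
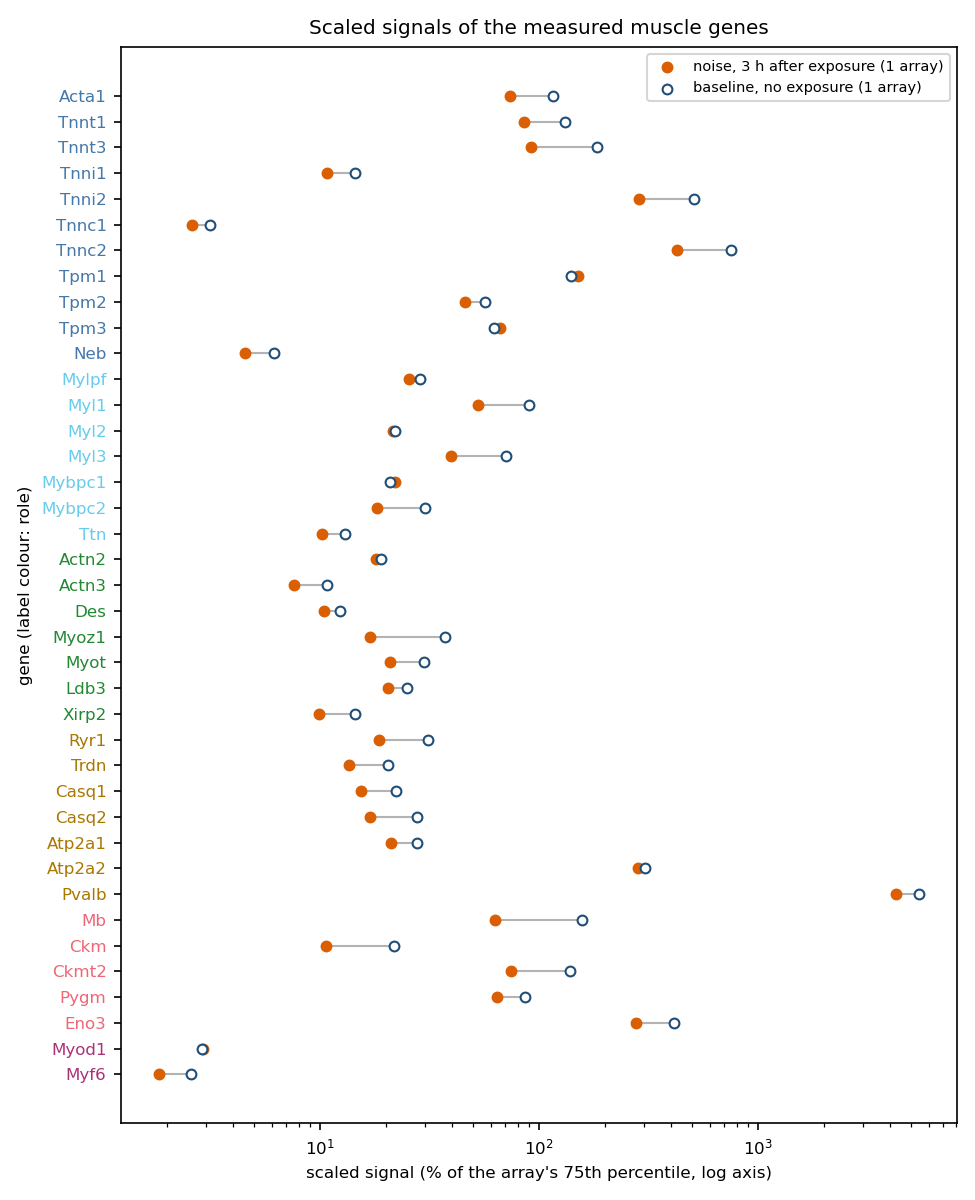
Scaled signal of each of the 39 measured genes on the noise array (filled) and the baseline array (open), as a percentage of that array's 75th percentile on a log axis, each value the median of the gene's measured probes. Most filled points lie left of the open ones, from Mb (62.7% and 156%) to Tnnc1 (2.60% and 3.15%), while Myl2, Mybpc1, Tpm1, Tpm3 and Myod1 nearly coincide. Levels of different genes come from different probes and are not comparable.

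Fast isoforms were lower than slow ones in most comparisons. The 11 fast-fibre genes were all below 0, where 52.5% of all genes were, with a median of -0.74 and values from -1.13 (Myoz1) to -0.16 (Mylpf). Among the 9 slow-fibre genes, 7 were below 0 (77.8%), with a median of -0.27 and values from -0.84 (Myl3) to 0.20 (Tpm3). Of the 11 fast genes 6 were at least 1.5-fold lower (54.5%), and of the 9 slow genes 3 were (33.3%), both above the 4.99% of all genes. These genes are not replicates, and the difference between the medians has no test. Several slow genes, such as Atp2a2 and Tpm3, are also used by cells other than muscle, as is Pvalb among the fast genes. How much of the signal of these genes came from such cells was not tested.

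In 9 pairs of fast and slow partners the fast gene was lower in 7. Tpm1, which several fibre types use, serves as the partner of slow Tpm3 here and is not among the 11 fast genes. On the probes of their striated forms this pair had the opposite order, with Tpm1.1 at -0.08 and Tpm3.12 at -0.21. The median difference of log2 ratios, fast minus slow, was -0.28 and ran from -0.81 to 0.18. Mybpc2 against Mybpc1 was furthest apart (-0.81). The troponins followed, at -0.54 for Tnnc2 against Tnnc1, -0.41 for Tnni2 against Tnni1 and -0.31 for Tnnt3 against Tnnt1. Atp2a1 was at -0.28 against Atp2a2, Mylpf at -0.13 against Myl2 and Tpm1 at -0.09 against Tpm3. Opposite in sign were Myl1 against Myl3 (0.02) and Casq1 against Casq2 (0.18). All but the 3 widest differences were under 0.37, the software's highest error for a single probe of the set. A difference carries the errors of both genes, so a value above 0.37 is not thereby clear of error. Tnnc1 was also near the lower limit of measurement.

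Partner genes are similar in sequence, and a probe can bind both. The longest run of bases shared between any probes of 2 partners was 18, between a probe of Myl1 (-0.76) and that of Myl3 (-0.84), which is the pair closest in log2 ratio. Probes of Tnnt3 and Tnnt1 shared at most 11 bases, and in the other 7 pairs the longest run was between 4 and 8. Binding of one transcript to its partner's probe was not tested.

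**Figure D4:**
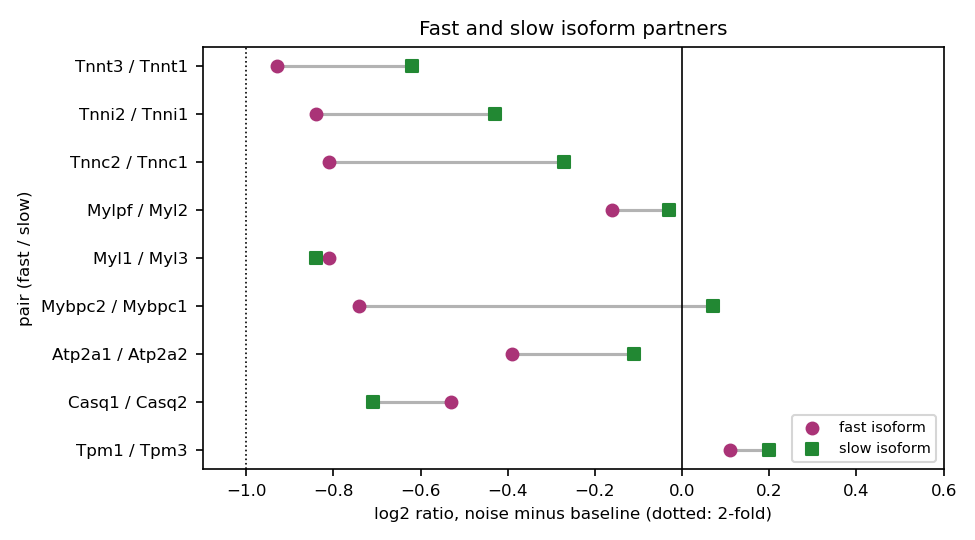
Log2 ratio of noise minus baseline of the fast (circle) and slow (square) gene in each of 9 isoform pairs, with a dotted line at 2-fold. The circle lies left of the square in 7 pairs, by up to 0.81 for Mybpc2 and Mybpc1, and to its right for Myl1 with Myl3 and Casq1 with Casq2. Points are gene medians, and for Tpm1 with Tpm3 the probes of the striated forms have the opposite order.

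Muscle genes are switched on through E-boxes, which bind the MyoD family, through sites for MEF2 and through CArG boxes, which bind serum response factor. RefSeq promoter windows of GRCm38.p6, from 250 bases before to 50 after the start, were matched for 30 of the 40 genes, in 37 windows. An E-box, CANNTG, which reads the same on both strands by its form, was found in 33 of these windows (89.2%), and in 72.3% of 32851 windows of all genes. A MEF2 motif was found in 4 windows (10.8%, against 3.19% of all), those of Casq2, Pvalb, Ttn and Xirp2. A CArG box was found in 4 windows (10.8%, against 1.63%), of Acta1, Myl3 and Ldb3. The forms of both motifs are the same on either strand. Some genes have several overlapping windows, so windows are not independent. A match is a stretch of letters and no evidence of binding.

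The following promoters are shown because their genes were lower together, at -0.66 (Acta1), -0.84 (Myl3), -0.71 (Casq2), -1.04 (Ckm) and -0.81 (Tnnc2), with each kind of motif represented. Capitals mark E-boxes, the CArG boxes of Acta1 and Myl3 and the MEF2 motif of Casq2, and no marked motifs overlap. Coordinates are those of GRCm38.p6, and the sequences are from RefSeq.
Acta1, chr8:123894726-123895025, minus strand: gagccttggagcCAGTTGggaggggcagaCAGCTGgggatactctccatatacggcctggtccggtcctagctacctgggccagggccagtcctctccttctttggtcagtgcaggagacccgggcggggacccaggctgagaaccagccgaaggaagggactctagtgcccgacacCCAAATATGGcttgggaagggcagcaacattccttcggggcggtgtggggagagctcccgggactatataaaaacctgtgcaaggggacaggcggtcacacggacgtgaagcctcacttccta
Myl3, chr9:110763428-110763727, plus strand: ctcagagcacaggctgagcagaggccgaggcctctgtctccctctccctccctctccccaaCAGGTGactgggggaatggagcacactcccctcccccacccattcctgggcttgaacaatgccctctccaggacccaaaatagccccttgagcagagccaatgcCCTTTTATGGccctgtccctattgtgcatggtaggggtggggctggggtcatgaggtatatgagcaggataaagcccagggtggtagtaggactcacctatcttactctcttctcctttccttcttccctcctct
Casq2, chr3:102086165-102086464, plus strand: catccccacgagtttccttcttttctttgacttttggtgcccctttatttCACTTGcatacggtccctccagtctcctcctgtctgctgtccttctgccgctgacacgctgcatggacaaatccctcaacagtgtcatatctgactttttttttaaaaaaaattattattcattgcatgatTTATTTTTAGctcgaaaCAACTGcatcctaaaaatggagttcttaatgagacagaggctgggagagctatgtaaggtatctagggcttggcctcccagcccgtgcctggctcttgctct
Ckm, chr7:19410844-19411143, plus strand: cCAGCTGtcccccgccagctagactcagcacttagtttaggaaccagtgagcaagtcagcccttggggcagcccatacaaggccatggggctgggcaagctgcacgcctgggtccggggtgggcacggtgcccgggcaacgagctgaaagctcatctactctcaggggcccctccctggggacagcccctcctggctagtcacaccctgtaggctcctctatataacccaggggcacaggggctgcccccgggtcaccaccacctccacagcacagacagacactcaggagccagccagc
Tnnc2, chr2:164779685-164779984, minus strand: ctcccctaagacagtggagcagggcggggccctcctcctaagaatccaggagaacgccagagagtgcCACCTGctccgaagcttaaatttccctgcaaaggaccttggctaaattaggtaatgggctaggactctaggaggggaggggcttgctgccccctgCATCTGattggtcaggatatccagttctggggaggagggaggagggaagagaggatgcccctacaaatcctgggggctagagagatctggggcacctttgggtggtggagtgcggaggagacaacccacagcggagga
The CArG box of Acta1 begins 73 bases before the start and that of Myl3 85 bases before it. In Casq2 the MEF2 motif begins 69 bases before the start and is followed by an E-box at 52 bases before it. Ckm and Tnnc2 hold E-boxes alone among these motifs, 1 and 2 of them.

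Beyond the 40 genes, 4 further lists of muscle genes were less uniformly lower. Sarcomeric myosin heavy chains, given below, are not among these lists and were lower in 7 of 7, with a median of -1.02. The 4 lists cover the Z-disc and M-band, excitation-contraction coupling, the neuromuscular junction and energy supply. Together they gave 45 of 63 measured genes below 0 (71.4%, against 52.5% of all genes) and a median of -0.14. At least 2-fold lower were 3 of these 63 (4.76%, against 1.25% of all genes), and none was at least 2-fold higher (0.611% of all genes). The median of the Z-disc and M-band list was -0.15, with 16 of 25 below 0. Its furthest members were Mybph, a relative of myosin binding protein C, at -0.98, Xirp1, another actin-binding repeat protein, at 0.74 and Tmod4, a cap of thin filaments in muscle, at -0.70. All were dim, and with the normexp background Mybph was at -0.35, Xirp1 at -0.01 and Tmod4 at -0.39. Tcap, telethonin, which holds titin in the Z-disc, was picked out after its value was seen: it read 381% after noise, against 235% at baseline (0.70). The energy list had 11 of 13 below 0 and a median of -0.18. The genes above 0 were Ucp3, a mitochondrial uncoupling protein, at 0.45, and Actn1, at 0.29, which is an alpha-actinin and no energy gene although the list holds it. Lowest was Pgam2, the muscle phosphoglycerate mutase, at -1.22. Cox7a1, a subunit of cytochrome oxidase in muscle and brown fat, was at -1.09 and Cox6a2, the muscle form of another subunit, at -0.68.

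Among coupling genes, 13 of 18 were below 0 with a median of -0.18. Sln encodes sarcolipin, a small inhibitor of the SERCA pumps. It had a scaled signal of 11.8% after noise, against 61.6% at baseline, with a log2 ratio of -2.38, lower than any gene of the 40. Cacna1s, the voltage sensor of the muscle membrane that opens Ryr1, was at -0.77, near Ryr1 itself at -0.74. Jph2, a junctophilin that ties the membranes together, was at 0.97 with a dim signal, 3.56% after noise, against 1.82% at baseline, and was at -0.02 with normexp. The 7 neuromuscular junction genes measured on both arrays had a median of -0.09, and furthest from 0 among them were Chrnb1 (0.26), Chrna1 (-0.15) and Chrne (-0.14), all subunits of the muscle acetylcholine receptor. Chrnd, the delta subunit, was above background at baseline alone and at least 1.79-fold lower after noise, further than any of these. Sarcomeric myosin heavy chains, the motors of the thick filament, were lower in 7 of 7 with a median of -1.02. Their furthest members were Myh8 at -1.16, Myh1 at -1.09 and Myh2 at -1.05. Myh8 rests on 1 of its 4 probes and Myh2 on 1 of 3, and with dim probes kept these 2 genes were at -0.65 and -0.37.

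Markers of other tissues were read in the same way. Brown and white fat genes were lower in 10 of 10 (52.5% of all genes were), with a median of -1.59. At least 2-fold lower were 8 of them (80%, against 1.25% of all genes). Their summed scaled signal was 2686% after noise, against 10103% at baseline, and none of the 10 was missing on either array. Ucp1, the uncoupling protein of brown fat, was at -2.81, Cidea at -2.69 and Cidec at -2.28, the last 2 being lipid droplet proteins. Fat and muscle genes were thus lower on the same array, and the part of tissue carried along at dissection in these values was not tested. With 1 array per group, noise exposure and the makeup of the dissected tissue cannot be told apart.

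Heart muscle genes had a median of -0.03, with 5 of 10 below 0 (52.5% of all genes were). None was past 2-fold, where 1.25% of all genes were lower and 0.611% higher. Pln, phospholamban, was at 0.96, Tnnt2, cardiac troponin T, at 0.43 and Actc1, cardiac actin, at -0.43. With the normexp background Pln and Tnnt2 were both at 0.08. Myl7, an atrial light chain, was above background on neither array. Smooth muscle genes had a median of -0.01, with 6 of 11 below 0. Myh11, smooth muscle myosin, was at 0.70, Actg2, a smooth muscle actin, at -0.43 and Cnn1, calponin, at 0.40. Myh11 was at 0.27 with normexp. Satellite cell and progenitor genes, of the stem cells of muscle, had a median of 0.04 over 6 measured genes, with Pax3 at -0.32, Pax7 at 0.27 and Cdh15 at 0.18. Pax7 was at -0.11 with normexp. Myf5 and Mstn were above background on neither array. Tendon genes had a median of 0.21 with 1 of 6 below 0: Mkx was at -0.62, Thbs4 at 0.50 and Fmod at 0.37. Mkx was at -0.23 with normexp. Cochlear genes had a median of 0.25 with 3 of 16 below 0, and Pou4f3 (0.67), a hair cell transcription factor, with Otoa (0.60) and Otog (0.37), which encode proteins of the gels over the sensory cells, were furthest from 0. Pou4f3 was at 0.23 with normexp. The cochlear list's summed scaled signal was 16788% after noise, against 14096% at baseline.

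**Figure D5:**
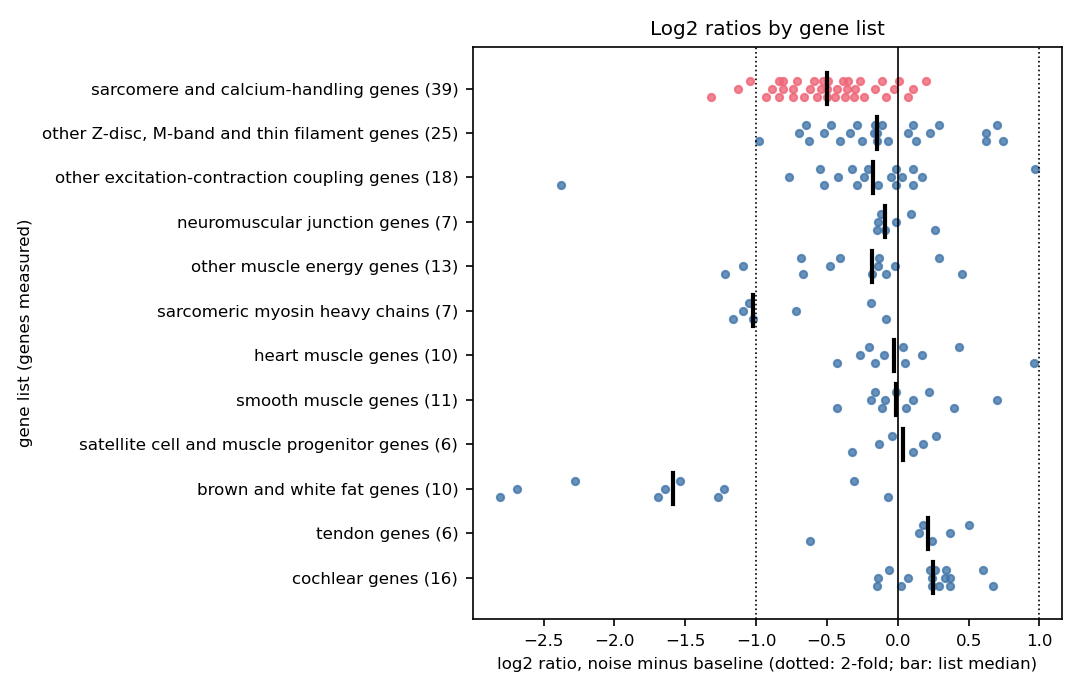
Log2 ratio of noise minus baseline of each measured gene (points) in the 40-gene set and in 11 further lists, with the list median as a black bar and dotted lines at 2-fold. Medians lie at -0.50 for the set, -1.02 for myosin heavy chains and -1.59 for fat genes, and between -0.18 and 0.25 in the remaining lists.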

How the data were processed

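The authors deposited 1 scanner file per array, made with Agilent Feature Extraction 11.5.1.1 per the file headers, which give the background-subtracted, detrended spot intensity on a linear scale with the software's error. Their deposited value table holds log2 values, which matched the log2 processed signal, floored at 1, less 8.30 on the noise array or 8.12 on the baseline array, with column medians of -2.81 and -2.79 and no centring per gene. Each array took Cy3-labelled cRNA from an input of 0.1 micrograms of RNA, per the labels' protocols.

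Outlier spots (77 on the noise array, 58 on the baseline array) were left out, log2 signals were averaged over repeat spots, and the 75th percentile of each array (signals of 316 after noise and 278 at baseline) was subtracted. No spot was saturated. Gene names are those of the array design, and positions are on mm9. Steps were run in Python 3.11.15 with pandas 2.3.3 and were tested on simulated data. The normexp background was made in limma 3.58.1, with an offset of 50 added to every signal. With 1 array per group there is no replicate error and no p-value.

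The genes, the lists and their division into roles and fibre types were chosen with earlier results of these data known. Every gene of the set is named, and of each further list the 3 genes furthest from 0. The rule for probe sequences asked for a match to the protein, which was not used here, and junction-spanning probes were taken instead. The scaling, background, probe filter, probe summary and source of values were varied in 8 alternatives, and the closing section gives their effect.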

Additional observations from a re-analysis of the deposited data

How the results depend on the processing

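Over 8 alternative settings, 43 of 56 values of the 7 results that sum up the set stayed within a tolerance, 13 moved further and none changed sign. The counts among these results cannot change sign. The deposited values are the processed signals less a constant per array, so that setting was bound to give almost the same values, also for single genes. The tolerance was 1.5 times for counts and, for medians, the SD of 0.27 between probes of a gene divided by the square root of the number of genes or pairs. The count of genes at least 2-fold lower was 1 (Mb) with spike-in scaling and with the normexp background, since Ckm (-0.81 and -0.52) and Myoz1 (-0.90 and -0.71) fell short. The count at least 1.5-fold lower, added after the data were seen, was 7 with spike-in scaling and 8 with normexp. The median of the set was -0.27 with spike-in scaling, -0.29 with normexp, -0.45 with quantile normalization and -0.58 with the stricter filter on dim probes. For fast isoforms the median was -0.51 with spike-in scaling and -0.47 with normexp, for slow isoforms -0.04 with spike-in scaling and -0.15 with quantile normalization, and the fast-minus-slow median was -0.18 with normexp. Spike-in scaling shifts every log2 ratio by the same amount and moved the median of all genes to 0.22. Relative to that median the set therefore had to stay at -0.49, as in the main setting, and the fast-minus-slow differences could not change either. Under normexp the set stood at -0.23 relative to the median of all genes. With spike-in scaling Actn2, Atp2a2, Myl2 and Mylpf were above 0, with normexp Mybpc1 and Myod1 below 0, with the brightest probe Tpm1 below and Tpm2 above 0, with the stricter filter Tpm2 above 0 and with quantile normalization Myl2 above 0. Ttn was at -1.02 with its brightest probe and with the stricter filter, which left 30 genes measured. Sln was at -1.48 with normexp. In all, 290 of 303 values of single genes of the set moved by less than 0.27. The normexp setting adds an offset of 50 to every signal, which by its form draws the ratios of dim probes toward 0. What else contributed to the shifts was not tested. Calls over all genes were 332 lower and 162 higher in the main setting, 180 and 365 with spike-in scaling, 74 and 56 with normexp, 1296 and 672 when dim probes were kept, and 119 and 83 with the stricter filter. Signals near the lower limit of measurement, as for Tnnc1, Myf6, Myod1 and Neb, limit the precision of their ratios. No paired analysis was possible because there was a single array of each kind, which also leaves no replicate to drop.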

Other observations

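Among the further lists, 3 muscle genes were above background on the baseline array alone. Myh3, the embryonic myosin heavy chain, read 0.905% after noise, below the lowest measured level of 1.45% on that array, against 2.46% at baseline, which makes it at least 1.69-fold lower. Chrnd, the delta subunit of the muscle acetylcholine receptor, read 0.807% after noise, against 2.59% at baseline (at least 1.79-fold lower). Myoz2, the slow-fibre and cardiac relative of Myoz1, read 1.52% after noise, against 2.45% at baseline, in 1 of its 3 probes (at least 1.61-fold lower). An at-least fold sets the baseline level against the higher of the probe's own signal on the noise array and the lowest level well above background there. None of these bounds reached 2-fold.

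Some muscle genes outside the set stood above 0 with a bright signal. Besides Tcap, Myom3, a protein of the M-band, was picked out after its value was seen: it read 103% after noise, against 66.9% at baseline (0.62). In the 8 alternative settings Tcap lay between 0.69 and 0.93 and Myom3 between 0.48 and 0.85. Csrp3, a muscle LIM protein also picked out after its value was seen, with a dim signal of 3.84% after noise, against 2.50% at baseline, was at 0.62 in the main setting and -0.03 with the normexp background.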
